A study of Mus musculus with 2 samples.

Results

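Of the miRNA genes tabulated for the stomach of newborn mice, 6 lie inside the Hox clusters: Mir10a, Mir10b, Mir615, Mir196b, Mir196a-2 and Mir196a-1. They were chosen by symbol and position and not by a rule on their reads, though with earlier results of these data known. All 6 were found among the 1973 genes of the count tables. No other of the 1894 tabulated genes with a known position lay between the first and the last Hox gene of any of the 4 clusters. The study sequenced RNA below 30 nt from the whole stomach of 2 pups, 1 library per pup. Both were B6NCrl mice at postnatal day 0 from 1 dam, their sex was not collected, and no treatment is labelled. They form 1 group, so the design allows a description of levels and a comparison of 1 library per littermate, but no contrast between conditions. In whole tissue, fewer cells of a type and less RNA per cell cannot be told apart.

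Hox genes encode transcription factors that set identity along the head-to-tail axis, and their order on the chromosome mirrors the order in which they are active along the body. Genes with low numbers are active further forward and those with high numbers further back. The miR-10 genes sit beside Hox genes of paralogue group 4, the miR-196 genes beside group 9, and Mir615 within Hoxc5, and miRNAs of both the miR-10 and miR-196 families are known to repress Hox mRNAs, as miR-196 does Hoxb8. The stomach forms from the foregut.

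The mature sequences are shown first because they decide which of these genes can be told apart by short reads. They come from RefSeq (build GRCm38.p6), 5′ to 3′, with the seed, the bases 2 to 8 that pair with targets, in capitals.
miR-10a-5p: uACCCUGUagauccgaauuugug
miR-10b-5p: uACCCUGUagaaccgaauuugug
miR-196a-5p: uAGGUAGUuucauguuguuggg
miR-196b-5p: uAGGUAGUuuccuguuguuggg
miR-615-3p: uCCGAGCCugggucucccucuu
miR-615-5p: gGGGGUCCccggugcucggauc
The 6 genes carry 2 shared 5p seeds. miR-10a-5p and miR-10b-5p have the seed ACCCUGU, which no other mature mouse miRNA of the table has, and differ at a single base outside it, U12A, counted from 1 at the 5′ end of miR-10a-5p. miR-196a-5p and miR-196b-5p share the seed AGGUAGU, again with no other mature miRNA in the table, and differ by A12C, counted in the same way from miR-196a-5p. Neither mature sequence of Mir615 shares its seed with another listed miRNA. The miR-196 seed also occurs in let-7g-5p, shifted by a base to positions 3 to 9.

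Both Mir196a genes encode the same miR-196a-5p, which limits what their counts can show. Their RefSeq hairpins are given with the longest stretch they have in common, 22 nt that make up the whole of miR-196a-5p, in capitals.
Mir196a-1: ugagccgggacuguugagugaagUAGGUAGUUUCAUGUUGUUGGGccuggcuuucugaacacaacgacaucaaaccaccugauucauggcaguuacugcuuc
Mir196a-2: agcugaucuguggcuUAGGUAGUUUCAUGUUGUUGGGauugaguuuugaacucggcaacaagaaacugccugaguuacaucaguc
Reads that lie within these 22 nt match both places. The bases on either side differ, so longer reads could be placed uniquely, and their number was not measured. Reads that mapped to several places made up 26.0% of the table of pup 1 and 25.7% of that of pup 2 and were credited to no gene, so a count at either Mir196a gene comes from reads that place it uniquely, such as those of its 3p arm. The level of miR-196a-5p was not measurable from these tables.

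The other members have no stretch of 20 nt or more in common with another annotated hairpin. Mir10a and Mir10b, whose hairpins follow with miR-10a-5p and miR-10b-5p in capitals, have at most 15 nt in common, the longest shared stretch of either with any other hairpin.
Mir10a: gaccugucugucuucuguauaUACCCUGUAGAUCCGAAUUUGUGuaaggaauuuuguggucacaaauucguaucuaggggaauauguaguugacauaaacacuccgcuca
Mir10b: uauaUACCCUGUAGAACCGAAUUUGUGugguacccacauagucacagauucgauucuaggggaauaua
The longest stretch Mir196b shares with another hairpin is 12 nt, with Mir196a-2, and that of Mir615 is 14 nt, with Mir6916. How many mismatches the alignment allowed is not stated in the sources used here, so how many reads of one miR-10 gene were placed on the other was not tested.

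Positions (GRCm38, GENCODE M21) place 3 members at the low-numbered part of a cluster and 3 further toward the high-numbered end. Mir10a (chr11:96317165-96317274, plus strand) lies between genes in HoxB, 992 bp upstream of Hoxb4 and 11043 bp downstream of Hoxb5. Mir10b (chr2:74726070-74726137, plus strand) lies in HoxD in an intron of 2 transcripts of Hoxd4 and of 1 long transcript of Hoxd3. Mir615 (chr15:103014910-103015001, plus strand) lies in an intron of both Hoxc5 transcripts that span it, with Hoxc6 3028 bp upstream and Hoxc4 3932 bp downstream.

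The miR-196 genes lie beside Hox genes of group 9. Mir196b (chr6:52230081-52230165, minus strand) is inside Hoxa9, where it overlaps an exon in 2 of the 3 transcripts that span it, and is 1031 bp from Hoxa10. Mir196a-2 (chr15:102973350-102973434, plus strand) is 1456 bp downstream of Hoxc10 and 3004 bp upstream of Hoxc9, in an intron of 1 long Hoxc5 transcript. Mir196a-1 (chr11:96265164-96265265, plus strand) lies between genes, 6191 bp upstream of Hoxb9 and 67716 bp downstream of Hoxb13. HoxB and HoxC thus each hold a member of both kinds, while HoxD holds only Mir10b and HoxA only Mir196b.

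**Figure D1:**
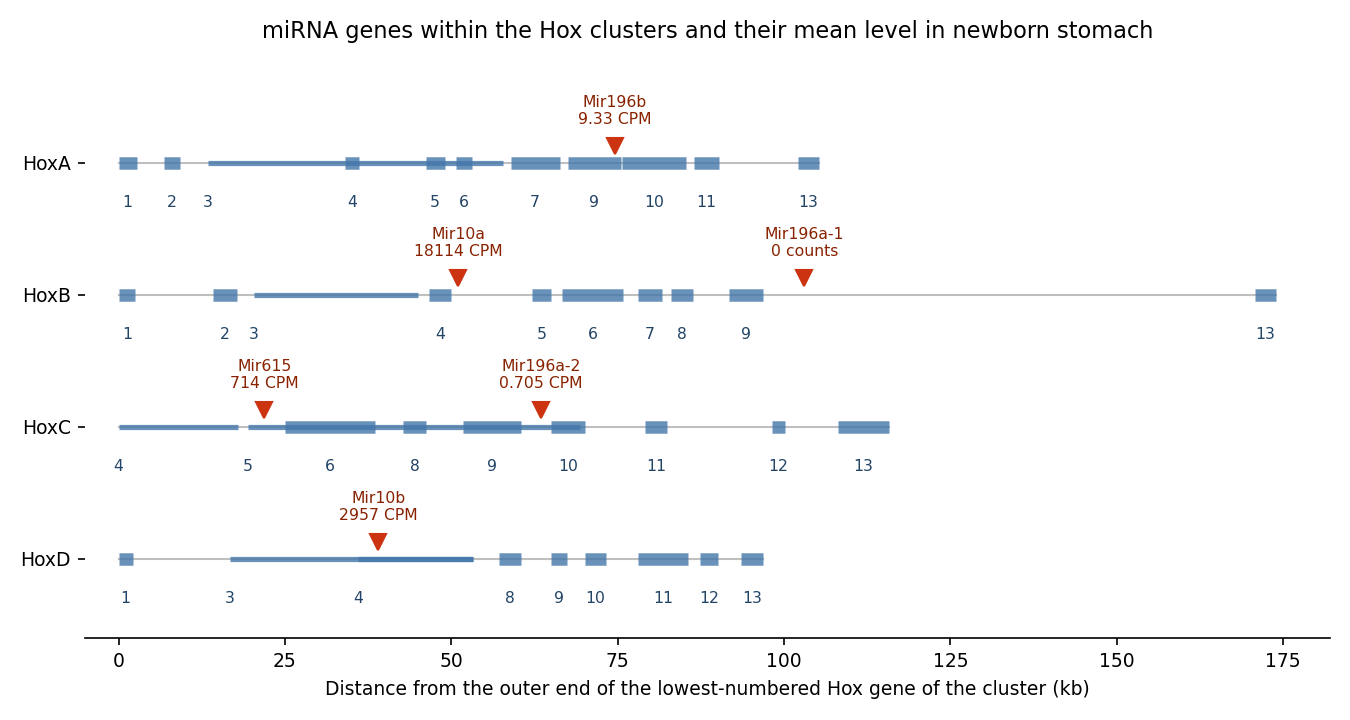
Map of the 4 Hox clusters, with distance in kb from the outer end of the lowest-numbered Hox gene on the horizontal axis, Hox genes as numbered bars (thin bars are gene models of 15 kb or more) and miRNA genes as triangles with their mean level over the 2 pups. The 3 genes at 714 CPM or more lie beside or within Hox genes numbered 4 or 5, and the 3 genes at 9.33 CPM or less lie beside or within Hox genes numbered 9, Mir196a-2 also within the long thin bar of Hoxc5. Reads within the shared miR-196a-5p sequence are credited to no gene, so the values of the Mir196a genes do not show its level.

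The levels of the 6 genes ran from among the highest of the tissue to no count at all. They are given as own-strand reads per 1000000 reads counted on the genes' own strand (CPM), with the mean and SD over the pups (n = 2). Each read was taken to span a whole miRNA, so counts were not divided by gene length. Read lengths were not examined, and ligation preferences between sequences were not tested. The annotated mature forms of the 6 members are 22 or 23 nt long. Those of the miR-99, miR-100 and miR-125 genes compared below run from 21 nt (miR-99a-3p) to 24 nt (miR-125a-5p). The tables count genes, so the 5p and 3p arms of a hairpin cannot be told apart.

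Mir10a led by a wide margin. It had 85514 counts in pup 1 and 58964 in pup 2, or 19159 CPM (exact 95% interval 19032 to 19287) and 17068 CPM (16932 to 17205). The intervals, which cover counting error only, do not overlap, so the 2 libraries differed by more than counting error. With 1 library per pup, a difference between the animals and one between library preparations cannot be told apart. The mean was 18114 ± 1479 CPM.

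Mir10b, from the HoxD cluster, was the second. It had 13961 and 9622 counts, or 3128 CPM in pup 1 and 2785 CPM in pup 2, with a mean of 2957 ± 242 CPM. Like Mir10a it was somewhat higher in pup 1. The reads of Mir10a outnumbered those of Mir10b 6.13-fold in pup 1 (exact 95% interval 6.02 to 6.24) and, again, 6.13-fold in pup 2 (5.997 to 6.26), a mean log2 ratio of 2.62 ± 0.00047 (SD, n = 2). Both genes thus differed between the 2 libraries by the same factor, to within the counting error of the ratio.

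Mir615 had 3178 and 2476 counts, or 712 CPM in pup 1 and 717 CPM in pup 2. The mean was 714 ± 3.32 CPM, the smallest spread relative to the mean of the 4 detected members, at 0.465% against 8.16% for Mir10a. Its exact 95% intervals, 687 to 737 CPM and 689 to 746 CPM, overlap almost whole. This closeness depends on scaling by total counts. The other scalings used for the pup comparison below gave log2 ratios of pup 1 over pup 2 of 0.09 to 0.14. Mir615 had the most GC-rich hairpin of the members, at 69.6% against 39.7% to 48.0% for the others and a median of 50.5% over detected genes. The part of base composition in its count was not tested.

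Mir196b had 29 counts in pup 1 and 42 in pup 2, or 6.50 CPM (exact 95% interval 4.35 to 9.33) and 12.2 CPM (8.76 to 16.4). The intervals overlap slightly, and the mean of 9.33 ± 4.00 CPM has the widest spread relative to the mean of the detected members, 42.9%. Mir196a-2 had 5 counts in pup 1 and 1 in pup 2, or 1.12 and 0.289 CPM. Mir196a-1 had 0 counts in both, which, taken as a limit of 3 counts, allows up to 0.672 CPM in pup 1 and 0.868 CPM in pup 2 for reads that can be placed there (0.826 and 1.07 CPM by the exact interval used above).

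**Figure D2:**
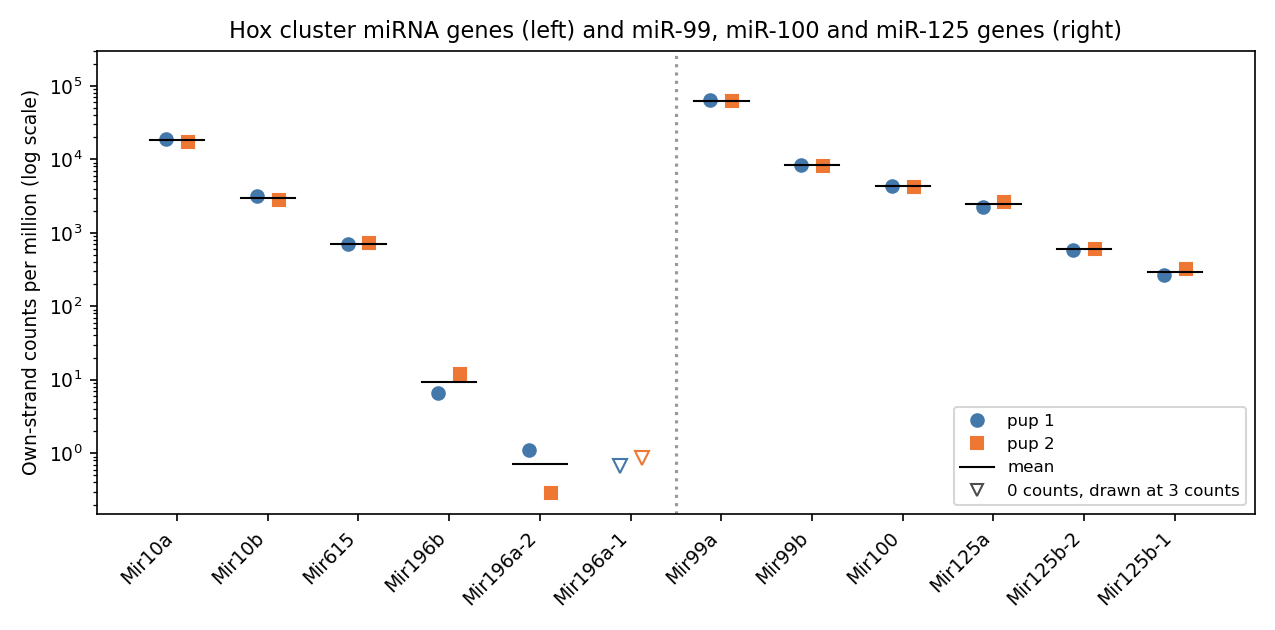
Level in each pup (circle, pup 1; square, pup 2; line, mean) on a log scale of own-strand counts per 1000000, for the 6 Hox cluster genes on the left and the miR-99, miR-100 and miR-125 genes on the right, where open triangles mark 0 counts drawn at 3 counts. Mir10a, Mir10b and Mir615 stand at 714 CPM or more in the mean, while Mir196b stands at 9.33 CPM and both Mir196a genes near or at 0. Reads within the shared miR-196a-5p sequence are credited to no gene, so the Mir196a values do not show its level.

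Detection, set at 10 counts or more in each library, was reached by 4 of the 6 members, against 15.5% of all tabulated genes. The 2 members that missed it are those with identical 5p sequences. Among the miR-125 genes and tissue markers named below, Mir125b-1, Mir125b-2, Mir194-1 and Mir194-2 also share 20 nt or more with another hairpin. All were detected, from 1203 and 1101 counts in pups 1 and 2 (Mir125b-1) to 3481 and 3752 (Mir194-2). The part of the shared sequence in the low counts of the Mir196a genes was not tested. Each step in the order of the detected members was larger than its SD over the pups. Mir10b exceeded Mir615 4.13-fold (log2 ratio 2.05 ± 0.13), and Mir615 exceeded Mir196b 80.4-fold (6.33 ± 0.63). Mir196b exceeded Mir196a-2 by 3.96 ± 2.02 on the log2 scale, a step that rests on 5 counts in pup 1 (ratio 5.80, exact 95% interval 2.22 to 19.2) and 1 count in pup 2 (ratio 42, 7.14 to 1698), in uniquely placed reads of Mir196a-2 only. With 2 libraries no permutation test can pass a threshold, so ratios are set against the SD only.

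Read by position, nearly all of the counts came from the low-numbered side of the clusters. All members on the high-numbered side are miR-196 genes, so position and miRNA family cannot be told apart here. The members were divided by name, Mir10a, Mir10b and Mir615 against the miR-196 genes, and Mir196a-2 falls in the latter although 1 long Hoxc5 transcript spans it. Mir10a, Mir10b and Mir615, at Hox genes of groups 4 and 5, held 102653 of 102687 member counts in pup 1 and 71062 of 71105 in pup 2. The miR-196 genes, beside group 9, held 34 and 43 counts. Pup 1 had a ratio of 3019 (exact 95% interval 2160 to 4360) and pup 2 a ratio of 1653 (1227 to 2284), for a log2 ratio of 11.13 ± 0.61. Since reads within the shared miR-196a-5p sequence are not counted, the miR-196 sum can be too low. With Mir196b alone on that side, a gene whose mature sequences occur at no other gene of the RefSeq table, the log2 ratio was 11.26 ± 0.75.

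Within HoxB and HoxC, which hold members of both kinds, the contrast cannot be read. Reads within the 5p sequence shared by the Mir196a genes there are counted nowhere. Across clusters, Mir10a of HoxB and Mir196b of HoxA, neither of which shares a mature sequence with another gene, differed by 10.99 ± 0.76 on the log2 scale.

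Together the 6 genes held 2.30% of own-strand counts in pup 1, with an exact 95% interval of 2.29% to 2.31%. In pup 2 they held 2.06% (2.04% to 2.07%). Mir10a alone made up 83.1% of this sum. The miR-10 pair, with its shared seed, held 2.11% ± 0.172 of all own-strand counts. No read fell on the strand opposite to any of the 6 genes in either library. For Mir10a this allows up to 0.00351% of its own-strand count in pup 1 and 0.00509% in pup 2, and for Mir196b up to 10.3% and 7.14%.

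Among the 305 detected genes the members were spread over nearly the whole range of levels. Mir10a ranked 13th, Mir10b 45th, Mir615 95th and Mir196b 264th. With only 2 libraries, likeness to other genes was read from level alone. The genes directly around Mir10a were Mir335 (19056 ± 1183 CPM), an imprinted miRNA in Mest, and Mir205 (16794 ± 2152 CPM), a miRNA of stratified epithelium, and neither differed from Mir10a beyond its spread (log2 ratios of Mir10a over them -0.07 ± 0.21 and 0.11 ± 0.30).

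Mir10b stood between Mir27b (2977 ± 165 CPM) and Mir106b (2955 ± 81.2 CPM), at log2 ratios of -0.01 ± 0.04 and -0.0012 ± 0.079. Mir615 stood between Mir483 (746 ± 66.4 CPM), which lies in Igf2, and Mir107 (691 ± 74.0 CPM), at -0.06 ± 0.12 and 0.05 ± 0.15. Mir196b stood between Gm23935 (9.45 ± 0.262 CPM) and Mir7688 (9.16 ± 0.672 CPM), at -0.09 ± 0.68 and -0.04 ± 0.75. None of the 8 neighbours differed in level from its member beyond the SD, so these ranks are not exact. Since the neighbours were picked as nearest in mean level, small differences follow from that choice.

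**Figure D3:**
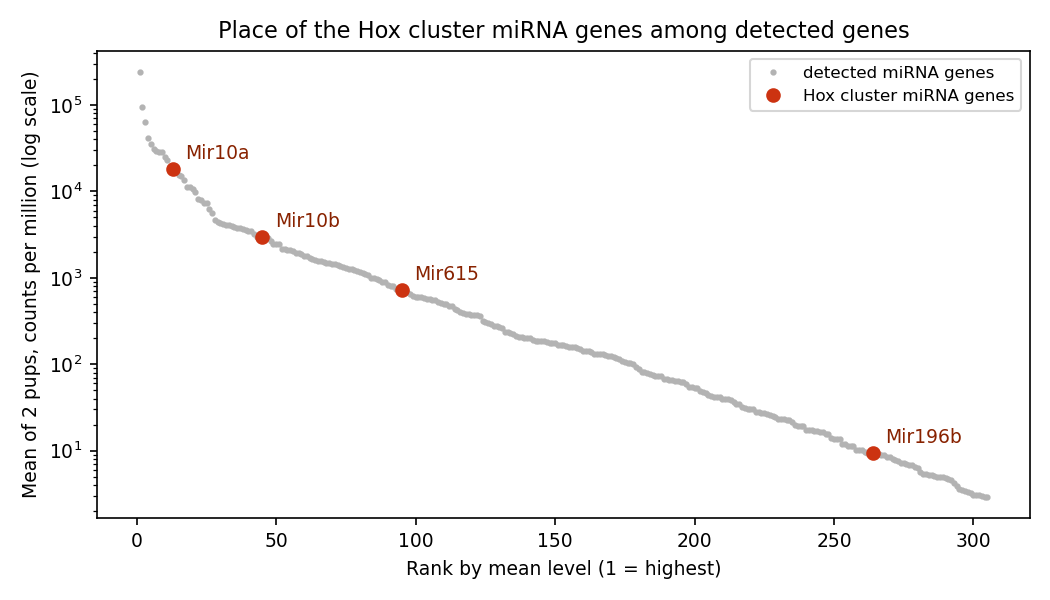
Mean level over the 2 pups (counts per 1000000, log scale) of the 305 detected genes in order of level, with the 4 detected Hox cluster genes in red. Mir10a stands at rank 13, Mir10b at 45 and Mir615 at 95, while Mir196b stands at rank 264, where the levels are near 10 CPM.

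The miR-99 and miR-100 genes, which lie outside the Hox clusters, encode the sequences nearest to miR-10 among those compared. They are given with the seed in capitals, which differs from that of miR-10.
miR-99a-5p: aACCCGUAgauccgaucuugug
miR-100-5p: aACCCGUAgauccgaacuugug
miR-99b-5p: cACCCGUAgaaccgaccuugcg
miR-10a-5p has 10 nt in a row in common with miR-99a-5p and 11 nt with miR-100-5p, and miR-10b-5p has 10 nt with miR-99b-5p. The miR-125 sequences have at most 5 nt in a row in common with either. All of the 6 genes in this list, fixed beside the members, were detected. Mir99a stood at 63047 ± 1872 CPM, Mir99b at 8267 ± 95.01 CPM and Mir100 at 4300 ± 116 CPM. The miR-125 genes ranged from Mir125a at 2447 ± 293 CPM down to Mir125b-1 at 294 ± 34.8 CPM, of which the Mir125b genes share a mature sequence and can be undercounted. Mir99a exceeded Mir10a 3.49-fold (log2 ratio 1.80 ± 0.08), and Mir10a exceeded every other gene of this list in the mean.

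The pups were set against each other gene by gene with an exact binomial test (two-sided) after TMM scaling (trimmed mean of M values). Its p measures counting error between these libraries and not the variation between animals. A call needed both a 1.5-fold ratio or more and an adjusted p below 0.05. By this rule 2.95% of the 305 detected genes were called, 2.30% as higher in pup 2 and 0.656% as higher in pup 1. Of the 4 members tested, 1 was called, Mir196b, at a log2 ratio of pup 1 over pup 2 of -0.80 (exact 95% interval -1.54 to -0.08; adjusted p = 0.045, exact binomial test with Benjamini-Hochberg adjustment).

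This call rests on 71 reads and was lost under 3 of the 5 other scalings, filters and ratio limits tried. It was lost with DESeq2 size factors (adjusted p = 0.061, exact binomial test) and with a minimum of 1 count (adjusted p = 0.096), while total counts kept it (adjusted p = 0.025). It was also lost when TMM factors came from all genes (adjusted p = 0.059), a setting chosen after seeing the data. With the common dispersion of edgeR as the error its adjusted p was 0.999, and 0.328% of genes were called. That dispersion, a coefficient of variation of 11.4%, is estimated from the difference between the same 2 pups, so few calls can be made with it and it does not bear on whether a member differs. Mir206, a skeletal muscle miRNA, was higher in pup 2 as well, with 435 and 914 counts (log2 ratio -1.34). Mir133b and Mir208b, also muscle genes, had smaller ratios, with 17 and 16 counts (-0.18) and 351 and 338 counts (-0.21). The part of muscle tissue in the difference of Mir196b was not tested.

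The miR-10 genes differed the other way and by less. Mir10a was 1.21-fold and Mir10b 1.21-fold higher in pup 1, at log2 ratios of 0.27 (exact 95% interval 0.25 to 0.28) and 0.27 (0.23 to 0.31). Neither reached the 1.5-fold minimum, although their many reads gave adjusted p values far below the threshold (8.5e-45 for Mir10b, exact binomial test). Without the minimum ratio 52.1% of all detected genes passed. Scaled by total counts both ratios were 0.17.

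Mir615 had a log2 ratio of 0.09 (0.02 to 0.17) under TMM and of -0.01 under total counts, so no direction can be given for it. The median detected gene had a log2 ratio of -0.13 under total counts and of -0.02 under TMM. The median over the 4 members tested was 0.18, or 0.27 without regard to sign, where the median absolute ratio over all detected genes was 0.17.

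**Figure D4:**
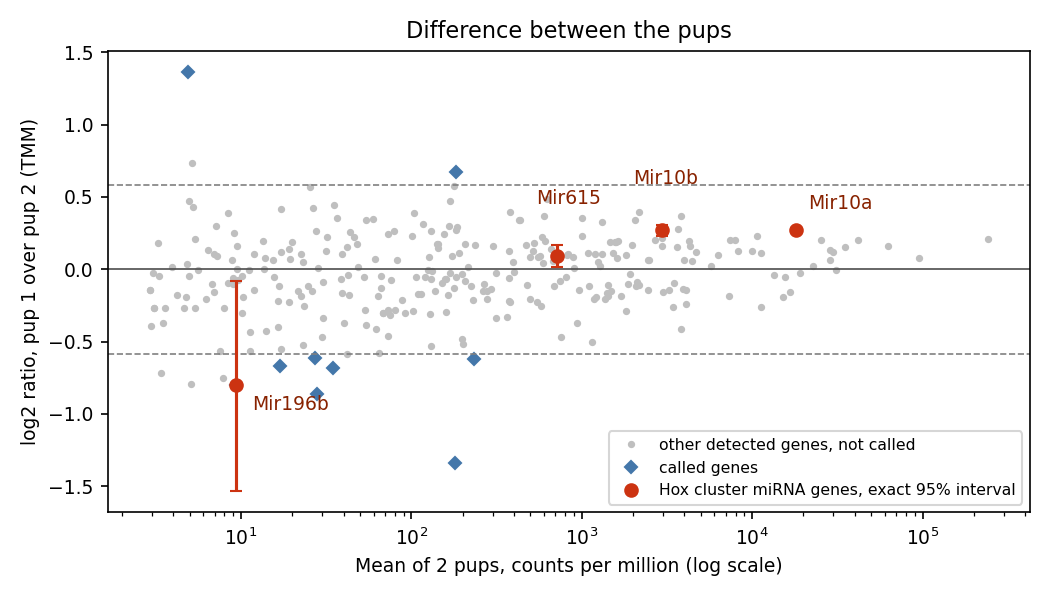
Log2 ratio of pup 1 over pup 2 after TMM scaling against mean level (counts per 1000000, log scale) for the 305 detected genes, with the Hox cluster genes in red with exact 95% intervals, called genes as blue diamonds and the 1.5-fold limits dashed. Mir10a and Mir10b lie at the same ratio, 0.27, while Mir196b lies at -0.80 with an interval from -1.54 to -0.08.

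The libraries held 4463355 and 3454655 own-strand counts, 62.0% and 62.3% of all reads in their tables. Markers of stomach tissue were present in both: the smooth muscle genes Mir143 and Mir145a held 24.8% ± 1.21 of own-strand counts, the squamous genes Mir203 and Mir205 11.2% ± 0.330, the glandular list with 4 of 4 members detected 0.792% ± 0.0330, Mir126a of endothelium 3.50% ± 0.0844 and Mir375 of endocrine cells 0.742% ± 0.0372. Of genes from organs that a dissection could carry along, the liver gene Mir122 held 0.0230% ± 0.00352 and Mir206 0.0181% ± 0.0118. The pancreatic genes Mir216a, Mir216b and Mir217 had at most 5 counts in either library. The part of carried-over tissue in the levels of the Hox cluster genes was not tested.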

How the data were processed

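MicroRNA-seq of newborn stomach was analysed from 1 table per pup. The authors deposited raw read counts per miRNA gene, in all and for each strand, with no normalization. Per the description files that accompany the tables, assembly mm10 and annotation M4 were used. The aligner is not given in the sources used here, nor is the counter. The strand column with the larger total was taken as the own strand. Reads that named no gene (36.5% and 36.3%) stayed out of totals. Names and positions came from GENCODE M21 on GRCm38, the assembly of mm10, which gave a name to 1894 of 1973 identifiers. Mir10b and Mir196a-2 carry a later version there, so their annotated limits may differ from those counted. Mature sequences of all 6 members and hairpins of 5 came from RefSeq.

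A count of 0 allows up to 3 counts. Intervals are exact Clopper-Pearson at 95%. With no molecular identifiers, PCR copies of 1 molecule count as separate reads, so intervals cover counting error only. TMM factors were computed over detected genes with edgeR 4.0.16 (R 4.3.3). The edgeR quasi-likelihood test has no residual degrees of freedom with 1 library per pup. DESeq2 1.42.0 gave alternative size factors. Python 3.11.15, scipy 1.17.1 and pandas 2.3.3 were used. The binomial test was tried on simulated counts that held counting error only. The simulation does not show how the test behaves where libraries vary by more than counting error. The labels name separate pups of 1 dam, so spreads are those between single libraries of littermates.

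The members and lists were chosen with earlier results of these data known. The genes named are the 6 members, other miRNA genes within the Hox spans (none among those with a position), the miR-99, miR-100 and miR-125 genes, the detected genes directly above and below each detected member in level, and tissue markers. Mir133b and Mir208b were added beside Mir206 with the results known.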

Additional observations from a re-analysis of the deposited data

How the results depend on the processing

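Per all reads of the tables, the levels came to 11259 CPM for Mir10a, 1838 for Mir10b and 444 for Mir615, and the share of the 6 genes to 1.35%, since that total is larger. Mir615 stood at 699 CPM per reads of both strands, whether own-strand or unstranded counts were used. Its log2 pup ratio turned to -0.0095 with total counts.

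Genes called between the pups numbered 9, with 2 higher in pup 1 and 7 in pup 2. With total counts the numbers were 16, 1 and 15. DESeq2 size factors gave 4 higher in pup 1 and 4 in pup 2, and TMM factors over all genes, chosen after seeing the data, gave 4 in pup 1. With no minimum ratio they were 159, 85 and 74. With edgeR's common dispersion there was 1, higher in pup 2, and 0 in pup 1, beside 16 genes at an unadjusted p under 0.05. This error term is derived from the pup difference itself, which leaves room for few calls. For the other settings the cause was not tested.

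With a single pup the share ranged from 2.06% to 2.30%. The log2 ratio of low-numbered over high-numbered members ranged from 10.69 to 11.56 and that of Mir10a over Mir10b from 2.61 to 2.62. For the neighbours in order it ranged from 1.96 to 2.14 (Mir10b over Mir615), 5.88 to 6.78 (Mir615 over Mir196b) and 2.54 to 5.39 (Mir196b over Mir196a-2). All kept their direction. The pup difference cannot be computed with a pup left out. No paired analysis was possible because there is 1 group. Depth limits Mir196b, at 42 counts or fewer. The Mir196a genes are limited also because reads within the shared miR-196a-5p sequence are credited to no gene, which more depth would not change.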
